A study of Mus musculus with 7 samples.

Results

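Immediate early genes are switched on within minutes of a stimulus, including the cutting and enzyme treatment that free a cell from its tissue. The 10 genes described here, Fos, Fosb, Jun, Junb, Egr1, Ier2, Atf3, Zfp36, Dusp1 and Nr4a1, were taken by name from the 52740 gene identifiers of the count table because they are known to respond to tissue dissociation, and the rule that lists them uses no measured value. All 10 were found, and all 10 were among the 16990 genes with enough counts to be tested. The RNA came from retinal pigment epithelium (RPE), the pigmented cell layer behind the photoreceptors, of 4 wild-type (WT) and 3 LC3b-/- mice aged 24 months, with 1 library per mouse. The WT libraries, of C57BL6/J mice, came from 3 females (F1, F2, F3) and 1 male (M1), and the LC3b-/- libraries, of the strain B6;129P2-Map1Lc3btm1Mrab/J, from 2 females (F1, F3) and 1 male (M). The LC3b-/- mice carry a germline loss of Map1lc3b, which encodes an autophagosome membrane protein, in every tissue. Both strains were bought as separate lines. The titles also carry a number whose meaning is not given, the same for all 4 WT libraries, another for both LC3b-/- females and another for the LC3b-/- male, so genotype, strain background and whatever this number stands for cannot be told apart. No treatment other than the genotype separated the groups. Every RPE sample was released in the same way, with hyaluronidase, removal of the neural retina, and then a warm trypsin incubation of the RPE and choroid. No library of RPE left in place was analysed here, so the level of these genes before release was not measured, and the values describe RPE after release.

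Most of these genes need no new protein synthesis to be transcribed. Signals through MAP kinases, calcium and cAMP activate factors that already sit at their promoters, such as serum response factor at CArG boxes and CREB at cAMP response elements, and the resulting mRNAs are short-lived. Fos and Jun proteins pair to form the transcription factor AP-1, while other members of the response, such as the phosphatase Dusp1 and the mRNA decay factor Zfp36, act to end it.

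The promoters of Fos, Fosb, Jun and Dusp1 are shown as examples of windows that held the response elements searched for, and because Dusp1 was one of the pair of genes that stood apart between genotypes. Each window is 300 bases of the reference genome GRCm39, from 350 to 51 bases before the start of the GENCODE canonical transcript, written in the direction of the gene. Capitals mark a CArG box or the letters TGACGT, the core of the cAMP response element, on either strand, where the other strand reads ACGTCA. The windows lie at chr12:85520308-85520607 on the plus strand for Fos, and on the minus strand at chr7:19044027-19044326 for Fosb, chr4:94940510-94940809 for Jun and chr17:26727544-26727843 for Dusp1.
Fos: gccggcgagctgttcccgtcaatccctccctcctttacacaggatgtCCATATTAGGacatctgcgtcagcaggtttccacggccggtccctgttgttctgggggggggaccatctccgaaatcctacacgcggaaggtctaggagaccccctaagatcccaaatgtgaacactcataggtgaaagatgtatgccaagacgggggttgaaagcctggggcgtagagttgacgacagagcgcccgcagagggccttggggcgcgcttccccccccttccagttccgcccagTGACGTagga
Fosb: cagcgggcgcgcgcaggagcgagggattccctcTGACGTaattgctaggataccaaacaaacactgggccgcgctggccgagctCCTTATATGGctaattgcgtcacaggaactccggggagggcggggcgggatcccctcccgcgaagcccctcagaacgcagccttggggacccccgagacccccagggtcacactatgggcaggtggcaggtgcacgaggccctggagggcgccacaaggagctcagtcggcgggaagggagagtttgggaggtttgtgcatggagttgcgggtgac
Jun: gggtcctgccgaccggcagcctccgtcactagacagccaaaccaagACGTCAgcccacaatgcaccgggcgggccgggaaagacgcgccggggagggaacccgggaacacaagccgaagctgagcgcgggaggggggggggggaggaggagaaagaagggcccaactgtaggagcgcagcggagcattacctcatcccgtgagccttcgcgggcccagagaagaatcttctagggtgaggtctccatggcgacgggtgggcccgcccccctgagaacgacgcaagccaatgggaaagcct
Dusp1: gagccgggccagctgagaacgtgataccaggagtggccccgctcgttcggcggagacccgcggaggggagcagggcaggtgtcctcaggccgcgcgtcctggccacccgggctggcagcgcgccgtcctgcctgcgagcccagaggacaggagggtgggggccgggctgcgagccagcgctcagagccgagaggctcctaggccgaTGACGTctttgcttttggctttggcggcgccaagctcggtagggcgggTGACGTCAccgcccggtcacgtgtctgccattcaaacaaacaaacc
A CArG box stood in the windows of Fos, 303 to 294 bases before the start, and Fosb, 266 to 257 bases before it, and in none of the other 8. The same motif was found in 1.58% of the windows of 21523 protein-coding genes. The core TGACGT was present in 5 of the 10 windows (Fos, Fosb, Jun, Egr1 and Dusp1; the Egr1 window is not printed here) and in 5.10% of all windows. Its full palindrome TGACGTCA, which contains the core, was found in Dusp1 alone among the 10, 96 to 89 bases before the start, against 0.939% of all windows. The AP-1 site TGACTCA was in none of the 10 windows and in 4.69% of all, and the EGR sites GCGGGGGCG and GCGTGGGCG were likewise in none, against 323 and 82 of the 21523 windows. These are matches of letters in a fixed window, and they do not show that a factor was bound.

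Library totals ran from 24495952 to 35616134 counts. The targeted gene Map1lc3b was at 104 to 130 CPM in WT and at 6.76 to 8.33 CPM in LC3b-/- libraries (log2 fold change -3.98, SE 0.15, adjusted p = 0.0001862 from edgeR, adjusted by Benjamini-Hochberg across every gene tested), so each library followed its label. CPM here is the count of a gene relative to the total of its library, after scaling by TMM factors. The RPE markers were the most abundant of the cell-type lists in every WT library, and their summed level was lower in LC3b-/- libraries (13002 to 28126 CPM) than in WT (30052 to 47394 CPM). In LC3b-/- F1 they were exceeded by ocular surface markers, at 25313 against 13002 CPM. The libraries also held RNA of other eye tissues, in amounts that differed between mice. Lists of markers of ocular surface epithelium, endothelium and mast cells summed higher in all 3 LC3b-/- libraries than in any WT library, and their values stand beside the immediate early genes further on. In bulk RNA, a different number of cells of a type and a different amount of RNA per cell cannot be told apart.

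All 10 genes were abundant in every library. Their counts ranged from 1120 to 31888 per gene and library, and together they took between 0.180% and 0.582% of all counts. Per kilobase of the canonical transcript, Fos averaged 279 CPM over the 7 libraries and Junb 278 CPM, followed by Zfp36 at 203 CPM and Jun at 190.3 CPM per kilobase. Fosb (138), Atf3 (136), Egr1 (109.9), Dusp1 (109) and Nr4a1 (95.9 CPM per kilobase) came next, and Ier2 was lowest at 62.5 CPM per kilobase. Each of these mean levels was above that of 95.02% to 99.1% of the genes tested. Along this order, Junb exceeded Zfp36, and Jun exceeded Fosb, in 7 of 7 libraries, and Nr4a1 exceeded Ier2 in 6 of 7. The other neighbours changed places between libraries, with the first gene of the pair ahead in only 3 to 5 of 7, so their order was not separable from the spread between mice.

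**Figure D1:**
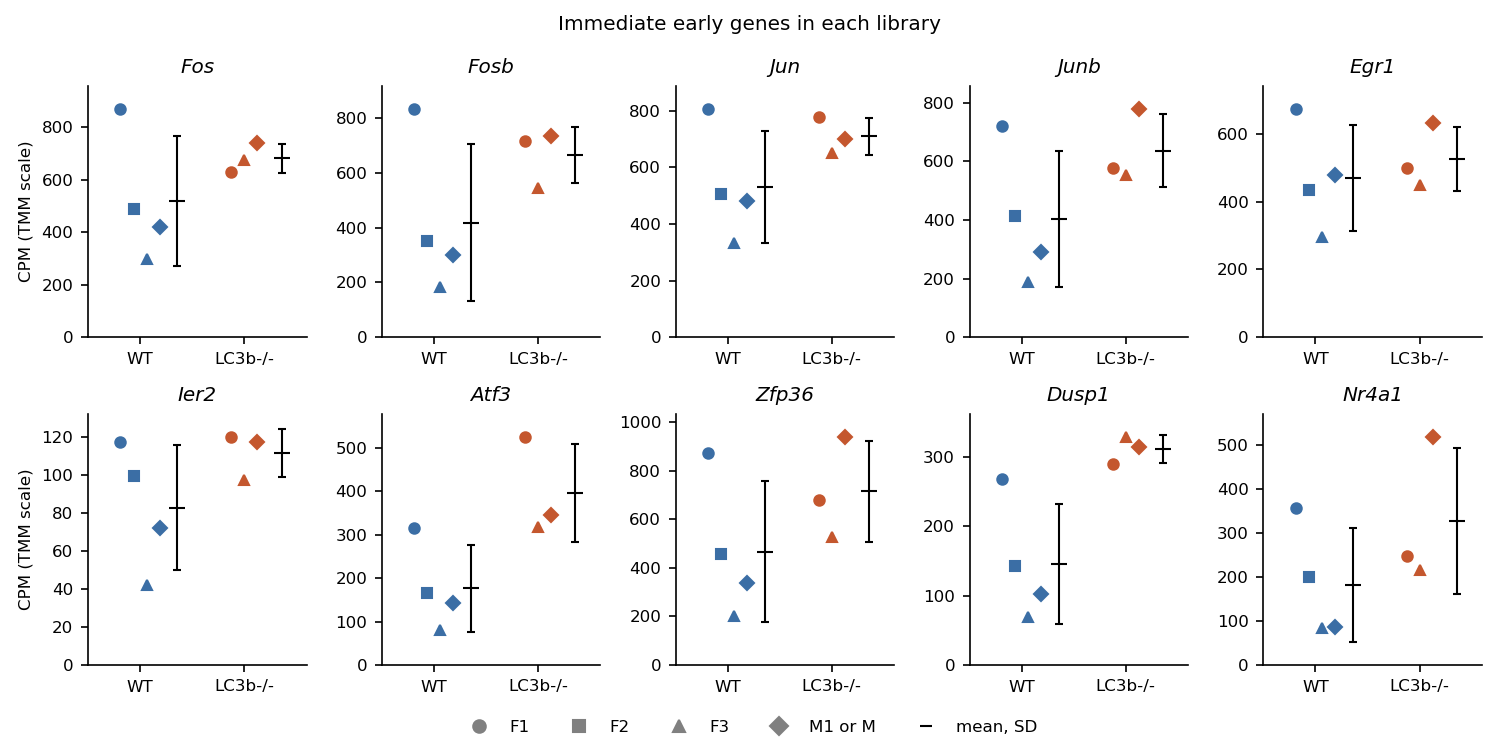
CPM on the TMM scale (vertical axes, from 0) of each of the 10 genes in the 4 WT (blue) and 3 LC3b-/- (orange) libraries, with the symbol giving the mouse label and the bar the group mean ± SD. WT F1 is the highest and WT F3 the lowest WT library in every panel, and the groups separate only for Atf3 and Dusp1.

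Fos (chr12:85520658-85524047, plus strand, 4 exons), the partner that makes AP-1 with Jun proteins, was at 871, 489, 298 and 422 CPM in the WT mice F1, F2, F3 and M1, against 630.2, 675 and 739.5 CPM in the LC3b-/- mice F1, F3 and M. WT F1 was above every LC3b-/- library and the other 3 WT libraries were below all of them, so the groups overlapped through a single mouse. The group means were 519.8 ± 247 CPM (SD, n = 4) and 682 ± 54.9 CPM (SD, n = 3), and the log2 fold change was 0.39 (SE 0.34, 95% interval -0.41 to 1.19, adjusted p = 0.512).

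Fosb (chr7:19036621-19043976, minus strand), a close relative of Fos, was at 833, 351, 183 and 301 CPM in the WT mice F1, F2, F3 and M1, against 716, 546 and 733 CPM in the LC3b-/- mice F1, F3 and M. Its WT values spanned 4.55-fold, the widest span of the 10 genes in WT, and again only WT F1 reached the LC3b-/- range. The log2 fold change was 0.67 (SE 0.47, 95% interval -0.43 to 1.78, adjusted p = 0.412).

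Jun (chr4:94937271-94940459, minus strand, 1 exon), the most transcriptionally active Jun protein in AP-1, was at 806, 504, 331 and 481 CPM in the same order of WT libraries, and at 777, 649.9 and 699 CPM in LC3b-/-. Junb (chr8:85701113-85705359, minus strand, 1 exon), a Jun protein that can restrain AP-1, was at 722, 412, 188 and 291 CPM in WT, and at 577, 553 and 779 CPM in LC3b-/-. For both genes WT F1 lay inside or above the LC3b-/- range and the other 3 WT libraries lay below it. The log2 fold changes were 0.42 for Jun (SE 0.29, adjusted p = 0.402) and 0.66 for Junb (SE 0.43, adjusted p = 0.374). Prdx2 overlaps Junb on the opposite strand and had 5512 to 8036 counts per library, from 28.4% of those of Junb in LC3b-/- M to 135% in WT F3, while the antisense gene Junos, which shares 522 bases with Jun, had 0.112% of its counts. The library kit keeps strand, but whether the counting used it is not given in the sources used here. The canonical Junb transcript shared no stretch of 100 bases or more, at 95% identity or more, with a transcript of any other gene. Other Junb transcripts were not searched, and the part of Prdx2 reads in the Junb counts was not tested.

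Egr1 (chr18:34992876-34998049, plus strand), a zinc finger transcription factor, was at 674, 434, 294 and 478 CPM in the WT mice F1, F2, F3 and M1, against 499.7, 448 and 631 CPM in the LC3b-/- mice F1, F3 and M. Here the groups were interleaved, with WT F1 above all LC3b-/- libraries and WT M1 above LC3b-/- F3. Its log2 fold change was the smallest of the 10, at 0.16 (SE 0.28, 95% interval -0.49 to 0.82, adjusted p = 0.752), and was -0.02 with WT F3 left out.

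Ier2 (chr8:85387960-85389483, minus strand, 1 exon), a short nuclear protein of the early response, was at 117, 99.4, 41.9 and 72.3 CPM in WT, and at 120.4, 97.3 and 118 CPM in LC3b-/- libraries. WT F1 and F2 lay level with the LC3b-/- range and WT F3 and M1 below it. The log2 fold change was 0.43 (SE 0.32, adjusted p = 0.434).

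Nr4a1 (chr15:101151980-101172681, plus strand), an orphan nuclear receptor, was the most variable of the 10 genes. It was at 357, 200.2, 84.7 and 85.4 CPM in the WT mice F1, F2, F3 and M1, against 247, 217 and 519 CPM in the LC3b-/- mice F1, F3 and M. The LC3b-/- male stood far above both LC3b-/- females, and its level was 6.08 times that of the WT male, the largest ratio between the males among the 10 genes. Over all libraries the log2 fold change was 0.85 (SE 0.57, 95% interval -0.48 to 2.18, adjusted p = 0.390), and in females only it was 0.11 (adjusted p = 0.930). Without the LC3b-/- male it was 0.35.

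Atf3 (chr1:190902493-190950241, minus strand) encodes a bZIP factor of the ATF/CREB family that is also a target of cellular stress signalling. It was at 316, 166, 80.7 and 143 CPM in the WT mice F1, F2, F3 and M1, against 526, 317 and 345 CPM in the LC3b-/- mice F1, F3 and M. All 3 LC3b-/- libraries were above all 4 WT libraries, but LC3b-/- F3 exceeded WT F1 by less than 1 CPM. The means were 177 ± 99.9 CPM (SD, n = 4) and 396 ± 114 CPM (SD, n = 3), and the log2 fold change was 1.16 (SE 0.43, 95% interval 0.16 to 2.17), a 2.24-fold difference. With an unadjusted p of 0.0289 from the edgeR quasi-likelihood test, its adjusted p over all genes tested was 0.167, so it was not called. The DESeq2 Wald test called it (log2 fold change 1.15, adjusted p = 0.0482), in a fit that called 10.8% of all genes, and limma voom did not (adjusted p = 0.0977).

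Dusp1, the phosphatase that switches off MAP kinases, was the other gene whose groups did not overlap (chr17:26724564-26781102, minus strand). It was at 268, 143, 69.5 and 103 CPM in the WT mice F1, F2, F3 and M1, against 289.6, 329 and 315 CPM in the LC3b-/- mice F1, F3 and M. The LC3b-/- libraries were close together, within 1.14-fold, and WT F1 was the nearest WT library below them. The means were 146 ± 86.7 CPM (SD, n = 4) and 311 ± 20.1 CPM (SD, n = 3), and the log2 fold change was 1.10 (SE 0.41, 95% interval 0.13 to 2.06, unadjusted p = 0.0312, adjusted p = 0.172 by edgeR). DESeq2 gave an adjusted p of 0.0543 for Dusp1 and limma voom 0.0868. Ergic1 overlaps the gene span of Dusp1 on the opposite strand. It had 1423 to 2810 counts per library, from 21.4% of those of Dusp1 in LC3b-/- F3 to 106% in WT F3. The canonical Dusp1 transcript shared no stretch of 100 bases or more, at 95% identity or more, with a transcript of any other gene. Other Dusp1 transcripts were not searched, and the part of Ergic1 reads in the Dusp1 counts was not tested. In addition, a pair of small genes on the same strand had no counts in any library.

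Zfp36 (chr7:28076209-28079710, minus strand), whose protein tristetraprolin directs AU-rich mRNAs to decay, was at 875, 459, 201 and 336 CPM in the WT mice F1, F2, F3 and M1, against 678, 527 and 942 CPM in the LC3b-/- mice F1, F3 and M. WT F1 fell between the LC3b-/- libraries and the other WT libraries were below them. The log2 fold change was 0.61 (SE 0.47, adjusted p = 0.451). Stretches of at most 148 bases of its transcript matched 28 other genes at 95% identity or more, so a small part of its reads may be shared.

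**Figure D2:**
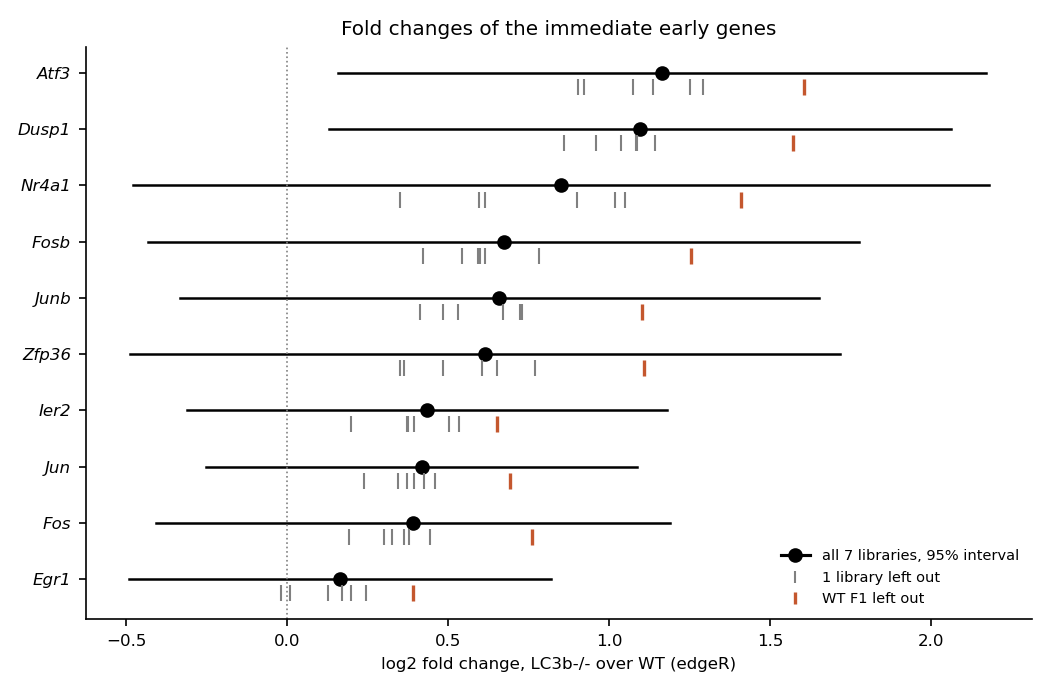
Log2 fold change of LC3b-/- over WT (horizontal axis) of the 10 genes from edgeR on all 7 libraries, with the 95% interval, and below each the estimates with 1 library left out. The interval leaves 0 only for Atf3 and Dusp1, and the estimate without WT F1 (orange) is the highest for every gene.

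None of the 10 genes was called at an adjusted p under 0.05 with a fold change of at least 1.5 in the edgeR quasi-likelihood test, a rule that called 40 of the 16990 genes tested, or 0.235%. DESeq2 called 1 of the 10, against 10.8% of all genes, and limma voom 0, against 0.730%. An unadjusted p under 0.05 was reached by 2 of the 10, Atf3 and Dusp1, both higher in LC3b-/- libraries, against 24.1% of all genes in either direction and 13.5% with the higher level in LC3b-/-. The same 2 of 10 did not overlap between the groups, against 22.3% of all genes in either direction and 12.0% with the higher level in LC3b-/-. By these counts the 10 genes were close to the background. Their direction was shared, since all 10 log2 fold changes were above 0, against 51.2% of all genes, and their median was 0.64, against 0.01 for all genes tested. All 10 were also above 0 with DESeq2 size factors or library size alone in place of TMM. The 10 genes vary together from library to library, so they are not 10 separate observations of a direction.

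The levels spread widely among the WT mice. The highest WT library exceeded the lowest by 2.29-fold (Egr1) to 4.55-fold (Fosb). This span was above the fitted fold difference between the genotypes for 10 of 10 genes. A span between extremes and a fitted fold difference are unlike measures, and the same count over all genes was not made. Within LC3b-/- the span was smaller, from 1.14-fold (Dusp1) to 2.40-fold (Nr4a1). The SD of log2 CPM within groups had a median of 0.65 over the 10 genes, against 0.32 over all genes tested, and each of the 10 had a larger SD than 59.6% to 86.6% of the genes tested.

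The WT mice kept one order across nearly all of the genes. WT F1 was the highest and WT F3 the lowest WT library for 10 of 10 genes, and the full order F1, F2, M1, F3 held for 9 of 10, with Egr1 the exception. The summed level of the 10 genes was 5839 CPM in WT F1, 3257 in F2, 1772 in F3 and 2713 in M1, and among LC3b-/- libraries 5062 CPM in F1, 4359 in F3 and 5819.8 in M. WT F1 was thus level with the highest LC3b-/- library, and the other 3 WT libraries were below all LC3b-/- libraries. For 4 genes (Fos, Fosb, Jun and Egr1) WT F1 was above every LC3b-/- library, and for 8 of 10 it was above at least 1. For 8 of 10 genes WT F2, F3 and M1 were all below every LC3b-/- library.

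How far the groups stood apart therefore depended on WT F1. Without that library, 8 of the 10 genes had an unadjusted p under 0.05 and 8 of 10 did not overlap between groups, against 28.6% and 35.8% of all genes in the same fit, and 18.0% and 20.9% with the higher level in LC3b-/-. WT F1 was left out after it was seen to be the highest WT library for all 10 genes, which widens the gap in advance. The 8 without overlap restate the count given above, and neither count is separate evidence of a difference. The log2 fold changes were then 0.39 to 1.61, with a median of 1.10, and still none was called (adjusted p from 0.0515 to 0.331, edgeR). Leaving out any other library gave 0 (WT F2, WT M1 or LC3b-/- F1), 1 (LC3b-/- F3 or LC3b-/- M) or 2 (WT F3) of the 10 with an unadjusted p under 0.05. Over all genes, those fits gave 13.8% (without LC3b-/- F1) to 26.2% (without LC3b-/- M) in either direction. The number of the 10 without overlap was 1 when WT M1, LC3b-/- F1 or LC3b-/- M was left out and the scaling was computed again. The shares of all genes without overlap in those fits were 25.3%, 26.6% and 39.2%. Nothing in the labels sets WT F1 apart from the other WT mice.

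Because the 10 genes moved together, their makeup within each library was also compared, as the share of each gene in the summed CPM per kilobase of the 10. Shares take out a level that all 10 have in common. Atf3 made up 6.07% to 7.07% in the WT libraries, and among LC3b-/- libraries 13.3% in F1, 9.21% in F3 and 7.63% in M, so all LC3b-/- libraries were higher. Dusp1 made up 5.05% to 5.96% in WT and 6.94% to 9.55% in LC3b-/-, also without overlap. Egr1 went the other way in share, from 6.64% to 10.4% in WT against 5.59% to 6.15% in LC3b-/-. The shares of a library add up to a fixed whole, so a higher share of some genes lowers that of others. In CPM the mean of Egr1 was not lower in LC3b-/- (log2 fold change 0.16). The other 7 shares overlapped between the groups. Shares were given no test and have no counterpart over all genes.

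**Figure D3:**
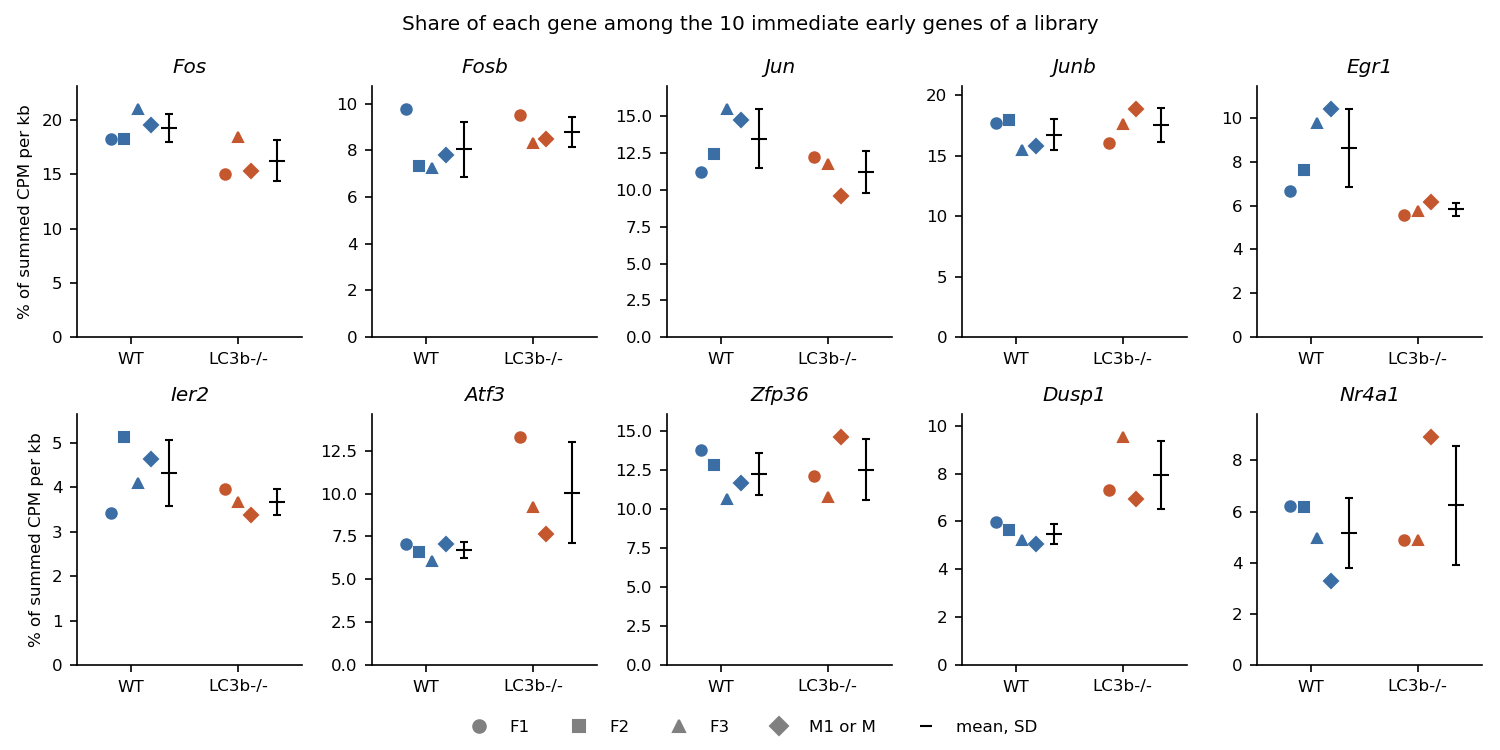
Share of each gene in the summed CPM per kilobase of the 10 genes of a library (vertical axes, percent, from 0), by group, with the mean ± SD. The groups separate for Atf3 and Dusp1 (higher in LC3b-/-) and Egr1 (lower), and overlap for the other 7.

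Set against Fos alone, in CPM, Atf3 stood at 0.271 to 0.363 of the Fos level in WT and at 0.467 to 0.835 in LC3b-/-, and Dusp1 at 0.233 to 0.307 in WT and 0.426 to 0.488 in LC3b-/-. WT F1, which reached the LC3b-/- level of most of the genes, had ratios of 0.363 for Atf3 and 0.307 for Dusp1, below every LC3b-/- library. The ratios to Fos of the other 7 genes overlapped between the groups. These ratios were examined after the levels were seen and were given no test.

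Markers of some other cell types varied along with the same libraries, and those of others did not. The 10 photoreceptor markers summed to 2075, 19367, 8255 and 23.2 CPM in the WT mice F1, F2, F3 and M1. In LC3b-/- they summed to 40.9 to 6695 CPM. The 5 erythrocyte markers were lowest in WT F1, at 182 CPM. The 4 melanocyte markers summed to 199 to 334 CPM in WT and 172 to 197 CPM in LC3b-/-. Of these 4, Kit went the other way, at 6.14 to 18.3 CPM in WT and 20.1 to 52.0 CPM in LC3b-/-. The 6 fibroblast markers, which include the collagen genes Col1a1, Col1a2 and Col3a1, summed to 1371, 920.3, 328 and 433 CPM in the WT mice F1, F2, F3 and M1, the order that 9 of the 10 immediate early genes had, and to 836 to 1836 CPM in LC3b-/-. The mast cell, neutrophil and lymphocyte markers had the same order in WT, at far lower levels. The 6 lymphocyte markers summed to 0.899 to 5.68 CPM in WT and 2.58 to 4.40 CPM in LC3b-/-. The 8 endothelial markers, among them Pecam1 and Cdh5, summed to 372 to 1194 CPM in WT and 1340.4 to 1604 CPM in LC3b-/-, with 4 of the 8 higher in every LC3b-/- library. The 10 ocular surface markers, mostly keratins, summed to 10.2 to 2476 CPM in WT and to 25313, 6926 and 3478 CPM in LC3b-/- F1, F3 and M, with 9 of the 10 higher in every LC3b-/- library. LC3b-/- F1, with the most ocular surface RNA, had the highest Atf3, and WT F3, with the least, was lowest for all 10 immediate early genes. WT M1 had more of these markers than WT F1, at 2476 against 882 CPM, and a lower summed level of the immediate early genes. LC3b-/- M had the least of these markers among the LC3b-/- libraries and the highest summed level of the immediate early genes among them. The 4 mast cell markers summed to 2.62 to 12.9 CPM in WT and 17.9 to 112 CPM in LC3b-/-, with 2 of the 4 higher in every LC3b-/- library. The 10 macrophage and microglia markers overlapped in sum, at 381 to 532 CPM in WT and 263 to 497 CPM in LC3b-/-. Csf1r was the largest part of that sum (mean 266 CPM in WT, 164 CPM in LC3b-/-). Of the 10, 1 was higher in every LC3b-/- library, Cd68, at 10.7 to 29.3 CPM in WT and 29.4 to 52.8 CPM in LC3b-/-. The 6 neutrophil markers, of which Mpo was at 0 in all libraries, summed to 3.30 to 9.89 CPM in WT and 4.25 to 10.9 CPM in LC3b-/-, with 1 (S100a8) lower in every LC3b-/- library. Of the 9 RPE markers, 4 were lower in every LC3b-/- library than in any WT library and none was higher. These counts stand against 12.0% of all genes tested that were higher, and 10.3% that were lower, in every LC3b-/- library. No marker of any of these lists was called by edgeR, under a rule that called only 0.235% of all genes tested. The part of these cell types in the level of the immediate early genes was not tested.

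**Figure D4:**
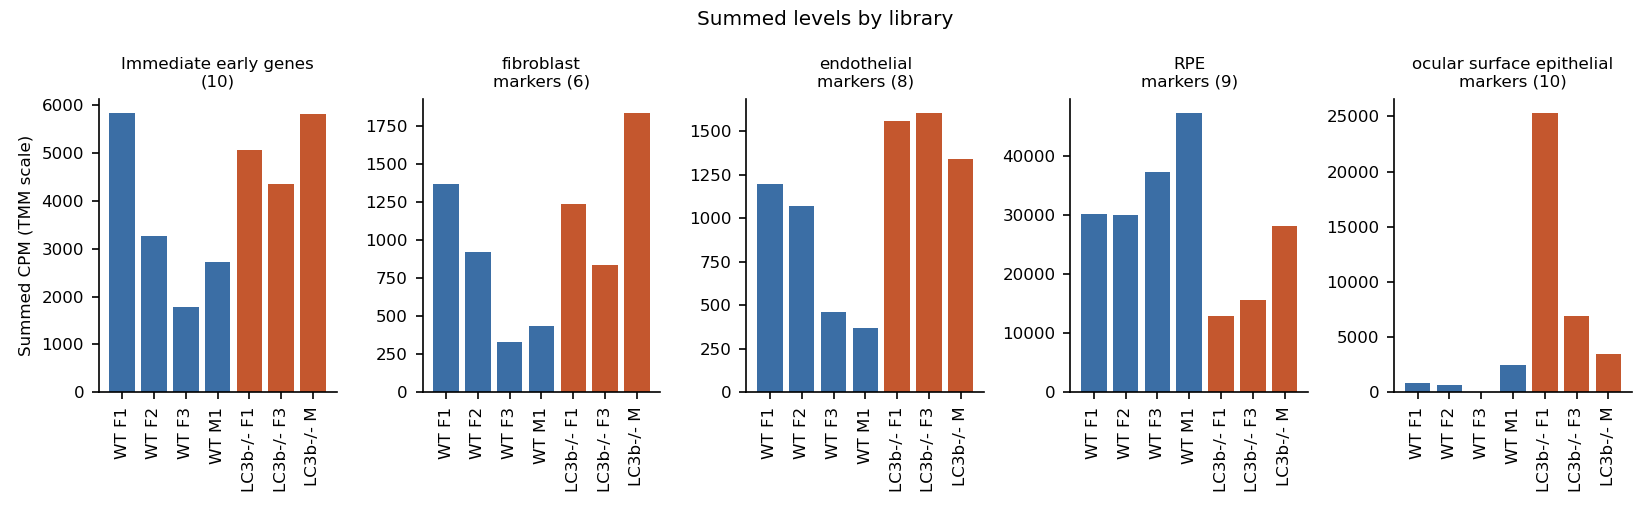
Summed CPM (vertical axes, from 0) of the 10 immediate early genes and of the fibroblast, endothelial, RPE and ocular surface epithelial markers in each library, WT in blue and LC3b-/- in orange. WT F1 has the highest and WT F3 the lowest bar of the WT libraries for the immediate early genes and for the fibroblast markers.

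Further genes of the same response were read from 6 other lists with 101 tested genes. None of the 101 was called by edgeR, whereas DESeq2 called 26 and limma voom 2, against 10.8% and 0.730% of all genes tested. The counts of unadjusted p under 0.05 that follow stand against 24.1% of all genes tested, made up of 13.5% with the higher and 10.6% with the lower level in LC3b-/-. Among 12 other AP-1 and small bZIP genes, all 12 log2 fold changes were above 0 with a median of 0.93, and 6 had an unadjusted p under 0.05. Fosl1, a Fos relative that follows sustained MAP kinase activity, had the smallest p of that list. It was at 0.711 to 1.43 CPM in WT and at 13.0, 6.29 and 3.37 CPM in LC3b-/- F1, F3 and M (log2 fold change 2.84, SE 0.49, adjusted p = 0.0776). The WT values of Fosl1 rest on 19 to 49 counts per library. Its order among the LC3b-/- libraries was also that of the ocular surface markers, and a part of those cells was not tested. Jdp2, a bZIP repressor of AP-1, was at 10.6 to 21.0 CPM in WT and 30.6 to 54.1 CPM in LC3b-/- (log2 fold change 1.59, adjusted p = 0.0834). For both genes every LC3b-/- library, and not only the mean, was above WT F1.

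Of 21 other early transcription factors and IER genes, 19 could be tested, all 19 with a log2 fold change above 0, a median of 1.04 and 12 with an unadjusted p under 0.05. They include Nfil3, a bZIP repressor with a circadian role, at 11.9 to 18.9 CPM in WT and 22.0 to 32.1 CPM in LC3b-/- (log2 fold change 0.94, adjusted p = 0.0951), and Myc, which drives growth, at 4.61 to 15.5 CPM in WT and 18.0 to 30.1 CPM in LC3b-/- (1.37, adjusted p = 0.112). Of the 18 early secreted factors and enzymes, all had a log2 fold change above 0, with a median of 0.92 and 8 under an unadjusted p of 0.05. Areg, an EGF receptor ligand, was at 0.300 to 1.14 CPM in WT and 2.33 to 10.5 CPM in LC3b-/- (log2 fold change 3.39, adjusted p = 0.0842). Its WT libraries held only 8 to 39 counts. Plaur, the urokinase receptor, was at 6.07 to 15.7 CPM in WT and 30.0 to 32.7 CPM in LC3b-/- (1.68, adjusted p = 0.0842).

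The other feedback inhibitors were less uniform. Of these 20 genes, 14 had a log2 fold change above 0 and 6 below, with a median of 0.57, and 5 had an unadjusted p under 0.05, all with the higher level in LC3b-/-. Dusp5, a nuclear phosphatase of ERK, was at 5.57 to 18.0 CPM in WT and at 86.4, 75.8 and 34.9 CPM in LC3b-/- F1, F3 and M (log2 fold change 2.52, SE 0.50, adjusted p = 0.0898). As for Fosl1 and Areg, the LC3b-/- libraries stood in the order of the ocular surface markers. Sik1, a kinase that dampens CREB-driven transcription, was at 40.0 to 106 CPM in WT and 125 to 153 CPM in LC3b-/- (1.17, adjusted p = 0.118).

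The genes upstream of the response and the heat shock genes were mixed. Of 20 upstream kinases and transcription factors, 16 had a log2 fold change above 0, with a median of 0.26, and 8 had an unadjusted p under 0.05 with the higher level in LC3b-/- and 1 with the lower. Rps6ka3, an ERK-activated kinase, was at 23.3 to 35.1 CPM in WT and 43.8 to 96.3 CPM in LC3b-/- (log2 fold change 1.29, adjusted p = 0.0906). Mrtfa, a cofactor of serum response factor, was at 10.5 to 14.5 CPM in WT and 19.5 to 29.4 CPM in LC3b-/- (0.84, adjusted p = 0.0945), and Map2k1, which activates ERK, was at 108 to 159 CPM in WT and 81.9 to 115 CPM in LC3b-/- (-0.44, adjusted p = 0.203). Of 12 heat shock genes 7 were above 0 and 5 below, with a median of 0.16, and an unadjusted p under 0.05 was reached by 4 with the higher level in LC3b-/- and 1 with the lower. The chaperone genes Dnajb1 (log2 fold change 1.61, adjusted p = 0.0967) and Hspb1 (1.29, adjusted p = 0.107) had higher levels in every LC3b-/- library, and Hsp90aa1 a lower one in every LC3b-/- library (-0.75, adjusted p = 0.113). For Rps6ka3, Mrtfa and Dnajb1 the LC3b-/- libraries also stood in the order of the ocular surface markers. A part of those cells was not tested.

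**Figure D5:**
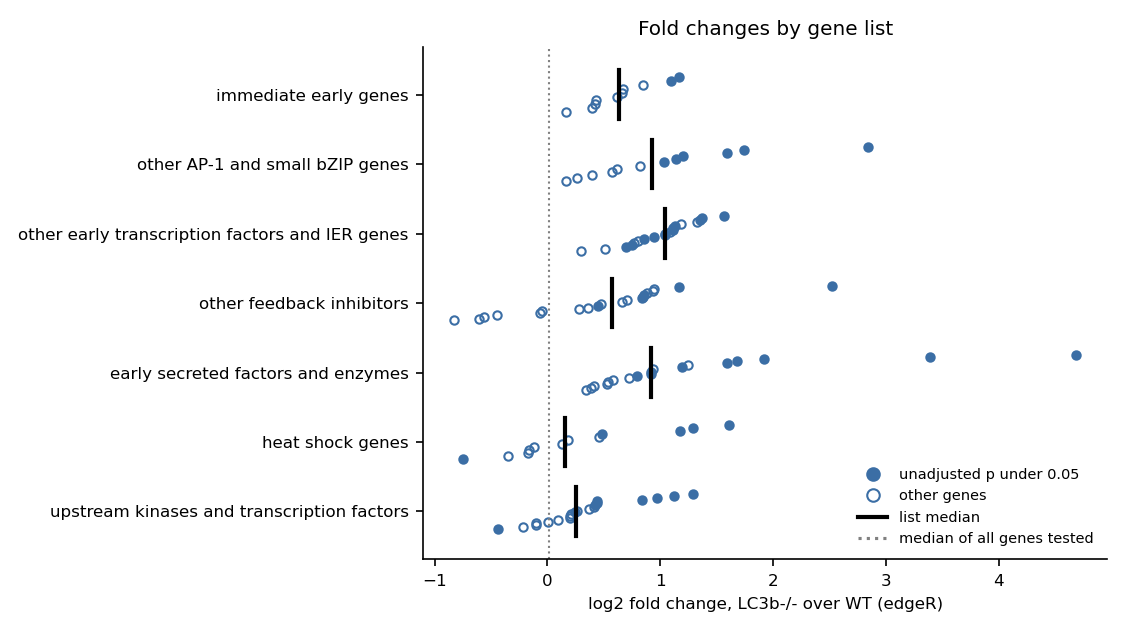
Log2 fold change of LC3b-/- over WT (horizontal axis, edgeR) of each gene of the 10 immediate early genes and of 6 other lists, filled where the unadjusted p was under 0.05, with the list median as a bar and the median of all genes tested as a dotted line. List medians range from 0.16 for heat shock genes to 1.04 for other early transcription factors and IER genes.

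The genes outside these lists whose log2 CPM most resembled the mean pattern of the 10 over the 7 libraries were chosen from 9584 protein-coding genes with a mean of at least 10 CPM. They were Slc1a5 (Pearson r = 0.992, Spearman rho = 0.964), Ppp1r15a (0.991 and 0.964), Ano1 (0.988 and 0.964), Irf1 (0.985 and 1) and Ccdc3 (0.984 and 0.964). As for the 10 genes, WT F3 was the lowest library for each of them, with 15.2 CPM of Slc1a5, 93.5 CPM of Ppp1r15a, 5.50 CPM of Ano1, 94.5 CPM of Irf1 and 4.91 CPM of Ccdc3. These r values were the highest of many, from 7 libraries that share their differences in tissue makeup, and are given as a description.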

How the data were processed

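RPE RNA of 7 mice was sequenced as single reads from stranded polyA libraries. Per the study's methods, the authors counted reads with Salmon against GENCODE transcripts on GRCm39 and summed them to genes with tximeta, and the deposited table holds these whole-number counts, not normalized. Estimated counts may have been rounded by the authors. Genes with enough counts (filterByExpr) were normalized by TMM and tested with the quasi-likelihood test of edgeR 4.0.16 (R 4.3.3), LC3b-/- against WT, all 7 libraries, no covariate, with Benjamini-Hochberg adjustment over all 16990 genes. Called genes passed an adjusted p of 0.05 and changed at least 1.5-fold. Intervals are 95%. CPM uses TMM-scaled totals, and SDs within groups use log2 CPM with a prior count of 2. Alternatives were DESeq2 1.42.0, limma 3.58.1 voom, other scalings and filters, sex as a covariate, females only, a replicate block and each library left out. The procedure was tested on simulated data. Gene positions and promoter windows come from GENCODE on GRCm39, and similar transcripts were searched with BLAST 2.17.0. Totals of 24495952 to 35616134 counts gave at least 1120 counts for each of the 10 genes in each library, so counting error was small beside the spread between mice, and p-values measure only that spread. Other lists name genes called and those with the 2 smallest p under 0.05 in each direction. The genes, lists and tests were chosen with earlier results of these data known.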

Additional observations from a re-analysis of the deposited data

How the results depend on the processing

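Of 160 results of single immediate early genes under alternative settings, 158 kept their direction and their side of the threshold. None of the 10 was called in the main fit and most settings called few genes at all, so this tally does not show stable sizes. The log2 fold change of Nr4a1 was 0.85 in the main fit and 0.11 in females only. That of Fos was 0.39 in the main fit and 0.76 without WT F1. Atf3 passed under DESeq2 (log2 fold change 1.15, adjusted p = 0.0482), which called 1 of the 10 genes, and Egr1 changed sign without WT F3 (-0.021, adjusted p = 0.971, range -0.021 to 0.39 with 1 library left out). The number of genes called over the whole table, 40, was 1831 with DESeq2, 124 with limma voom, 78 with no filter on low counts, 197 with sex as a covariate, 96 in females only and 1 with the replicate block. Leaving out 1 library gave 11 to 485. Genes called in the other lists, 0, were 26 with DESeq2, 2 with limma voom, 2 with sex as a covariate and 0 to 8 with 1 library left out. Immediate early genes that did not overlap were 1 to 8 with 1 library left out, against 25.3% to 39.2% of all genes tested. The median within-group SD of the 10 was 0.41 to 0.72. Their median log2 fold change was 0.38 to 1.10 with 1 library left out and 0.34 in females only. In females only, 0 of the 10 had an unadjusted p under 0.05, against 21.6% of all genes tested. The cause of these changes was not tested. Mouse labels did not pair the libraries: deviations of same-labelled mice correlated across genes at 0.15, 0.24 and -0.17, and the replicate block (1 gene called) changed no call of the 10 genes. With 4 and 3 mice, differences of the size seen for Fos or Egr1 were not separable from the spread.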
